A study of Mus musculus with 12 samples.

Results

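The 40 genes described here encode proteins that take a cell through mitosis and guard the attachment of its chromosomes to the spindle. They were chosen by a list of names, and each was found once among the 55385 genes of the deposited table. The study asked how Polycomb repressive complex 1 (PRC1), which ubiquitinates histone H2A and holds developmental genes silent, acts in mouse spermatogonia, the mitotic germ cells of the testis. RNA was sequenced from 12 libraries in 6 groups of 2, each library made from pooled sorted cells, and the methods state that the 2 libraries of a group are independent biological replicates. The WT groups, from untreated adult C57BL/6 mice, were undifferentiated spermatogonia (A_undiff, sorted as E-Cadherin+ CD9-high KIT-) and differentiating spermatogonia (A_diff, sorted as E-Cadherin+ CD9-medium KIT+). The other 4 groups were A_undiff of mice of mixed C57BL/6 X FVB/NJ background, labelled PRC1ctrl and PRC1cKO, either untreated at 2 months or given the retinoic acid synthesis inhibitor Win18,446 in about 30 daily injections from 1 month of age, with sampling 24 h after the last. Both genotypes lacked *Ring1* in the whole animal and carried the germline-driven Ddx4-Cre. PRC1cKO mice had 1 floxed and 1 null allele of *Rnf2*, the partner catalytic gene of the complex, and their PRC1ctrl littermates 1 floxed and 1 wild-type allele, so that the controls were not wild type for PRC1.

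Mitosis is driven by the kinase CDK1, which is released by CDC25 phosphatases and followed by the Polo-like and Aurora kinases. The spindle checkpoint, built from BUB and MAD proteins and the kinase TTK, holds back the anaphase-promoting complex until every kinetochore is attached. Most of the genes concerned are transcribed periodically, late in the cell cycle, in part through the transcription factor FOXM1, so their level in a bulk sample is widely read as a measure of how many cells are dividing. A_undiff include the stem cells of the testis, and A_diff go through a series of rapid divisions before meiosis. The member *Prc1* (protein regulator of cytokinesis 1) shares only its name with the complex PRC1.

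Levels are given as TPM, the share of a gene among all transcripts of a library after correction for length. This correction does not remove other differences between members, such as the trend with GC content described below. Read numbers, and so the counting error of a value, are unknown. Differences were tested with limma (two-sided) on log2(TPM + 1), which understates the change of low genes, and p-values were adjusted (Benjamini-Hochberg) over every gene that reached 1 TPM in 2 or more libraries of the comparison. A member that reached an adjusted p under 0.05 is said to have passed, and to have been called where its change also exceeded 2-fold. A value written with ± is a log2 fold change on this scale and its standard error. With 2 libraries against 2, the smallest two-sided p of an exact permutation test on 1 gene is 0.33. Where 1 library was left out, the lone library of its group was assumed to vary like those of the other groups in the fit. In bulk RNA, fewer cells expressing a gene and less RNA per cell cannot be told apart.

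Both untreated PRC1 groups were made with a low-input kit (the Smart-Seq2 method) and the other 8 libraries with a stranded mRNA kit, so comparisons were made within a kit. Mitochondrial genes held 12.5% to 16.6% of the TPM in the 4 low-input libraries and 4.28% to 6.69% in the others. *Ring1* was at 0.03 to 0.25 TPM in all 8 PRC1 libraries and at 8.61 to 19.9 TPM in the 4 WT libraries. *Rnf2* was not lower under the label PRC1cKO (56.7 and 67.5 TPM untreated, against 28.3 and 47.6 TPM), and gene-level TPM cannot separate a deleted from an intact allele, so the libraries are called by their labels. *Kit*, the receptor used in the sort, was at 6.38 and 6.96 TPM in WT A_undiff and at 247 and 245 TPM in WT A_diff. The summed TPM of 8 spermatid markers, genes of cells that A_undiff should not contain, was 761 and 1764 in the untreated libraries labelled PRC1ctrl, 64.8 and 58.8 in those labelled PRC1cKO, and 551 to 882 in the WT libraries.

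All 40 members were detected at 1 TPM or more in both libraries of every group, with the exception of *Cdc25b* in the untreated libraries labelled PRC1ctrl. In WT A_undiff the members ranged from 6.88 TPM for *Mki67* to 172 TPM for *Cenpa*, the centromeric histone H3 variant, around a median of 37.3 TPM. In WT A_diff the median was 79.2 TPM, with *Hmmr* lowest at 9.02 TPM and *Cenpa* highest at 288 TPM. Together the members made up 0.200% to 0.208% of the TPM in WT A_undiff and 0.322% to 0.354% in WT A_diff. Among the 4 groups made with the stranded kit, WT A_diff had the highest mean for 32 of the 40 members, and for 27 of them both of its libraries lay above all 6 others. Of all 17794 genes at 1 TPM or more in at least 2 stranded libraries, WT A_diff had the highest mean for 32.7% and lay above the 6 others for 21.3%. The map of levels shows this column pair as the brightest of the stranded libraries in most rows, and shows the low-input libraries apart from the rest.

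**Figure D1:**
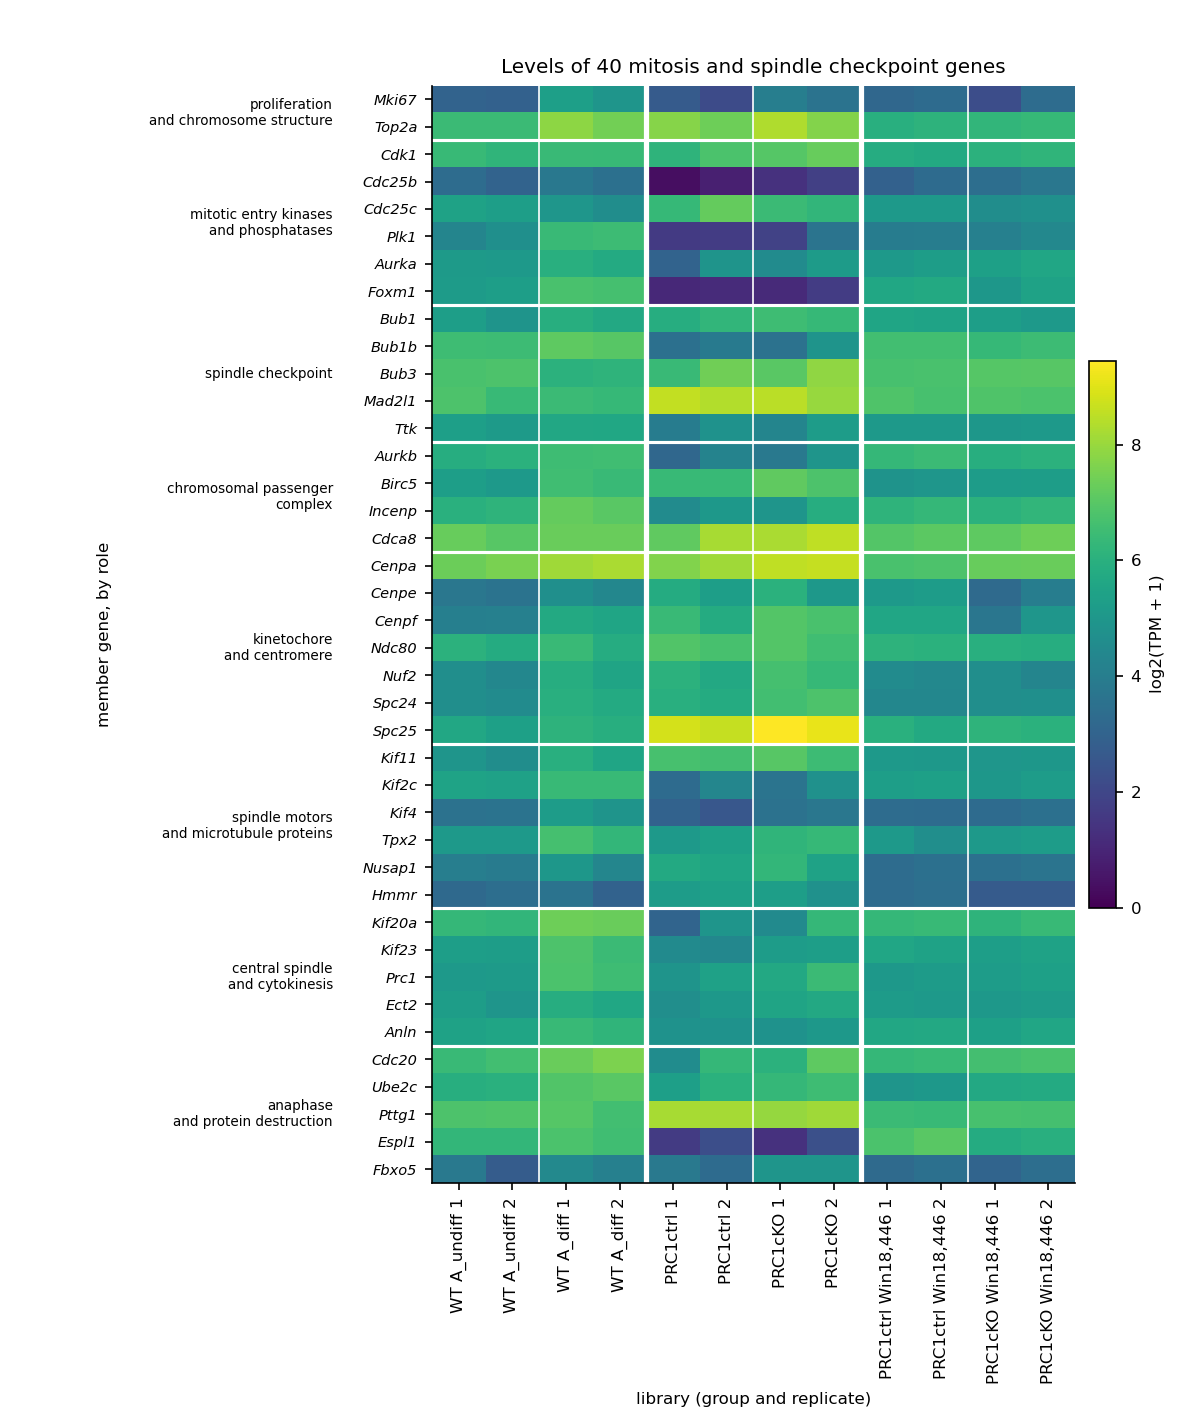
Level of each of the 40 members (rows, grouped by role) in each of the 12 libraries (columns, 2 per group), as log2(TPM + 1) from dark (low) to bright (high). WT A_diff is brighter than WT A_undiff for most members, and *Foxm1*, *Espl1*, *Plk1* and *Cdc25b* are darkest in the 4 untreated PRC1 libraries, which were made with the low-input kit.

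The WT comparison asked which members differ between A_undiff and A_diff. The mitosis genes were higher in A_diff: 27 of the 40 members rose and 2 fell, against 23.4% of all 15470 genes tested that rose and 14.7% that fell. By the stricter call, 15 members were more than 2-fold higher and 0 more than 2-fold lower, where 11.1% and 9.24% of all genes were. The proliferation marker *Mki67*, the mitotic kinase gene *Plk1* and the transcription factor gene *Foxm1* were among the largest increases, while *Cdk1*, the kinase that starts mitosis, did not pass. The members' median log2 fold change was 0.81, and it was 0.66 above the median of all genes tested, which was itself 0.15. After median-of-ratios scaling, which sets the median of all genes near 0, the members' median was 0.65, and 22 members rose and 2 fell where 16.0% of all genes rose and 18.3% fell.

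*Mki67* (ENSMUSG00000031004, chr7:135689784-135716361 on GRCm38), whose product Ki-67 coats mitotic chromosomes and marks cells in cycle, had 7.02 and 6.73 TPM in WT A_undiff and 39.2 and 29.5 TPM in WT A_diff. The libraries of the 2 populations did not overlap, and the mean was 4.99-fold higher in A_diff (log2 fold change 2.15, SE 0.20, limma adjusted p = 0.0014), the largest change of any member. *Top2a*, the topoisomerase that untangles sister chromatids, rose from 86.99 and 85.8 to 231 and 172 TPM (log2 fold change 1.20, SE 0.17, limma adjusted p = 0.00379).

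Of the 6 genes of mitotic entry, 3 rose, 1 fell and 2 did not pass. *Plk1* (ENSMUSG00000030867, chr7:122159439-122169873), a kinase needed for spindle assembly and exit from mitosis, was at 18.8 and 25.3 TPM in A_undiff and at 84.1 and 89.2 TPM in A_diff (log2 fold change 1.94, SE 0.18, limma adjusted p = 0.0014). *Foxm1* (ENSMUSG00000001517, chr6:128362967-128376146), which activates many late cell cycle genes, was at 35.4 and 38.1 and then at 105 and 101 TPM (log2 fold change 1.46, SE 0.13, limma adjusted p = 0.00134). In both genes each A_diff library was above both A_undiff libraries by more than the replicates differed. *Aurka*, the kinase of the spindle poles, rose less (0.75 ± 0.15, limma adjusted p = 0.011). *Cdk1* was at 82.6 and 71.99 TPM in A_undiff and at 84.5 and 82.2 TPM in A_diff, ranges that overlap (log2 fold change 0.11, SE 0.14, limma adjusted p = 0.554, 95% interval -0.22 to 0.44). Of the CDC25 phosphatases, which release CDK1, *Cdc25b* had a log2 fold change of 0.46 that did not pass (limma adjusted p = 0.146), and *Cdc25c* fell from 42.7 and 38.2 to 29.9 and 24.02 TPM (log2 fold change -0.57, SE 0.17, limma adjusted p = 0.0409). The fall of *Cdc25c* did not pass without either A_undiff library or without the second A_diff library (limma adjusted p = 0.0997 to 0.196).

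The spindle checkpoint was the role group with the smallest median change, 0.41. *Bub1* and *Bub1b*, kinase and pseudokinase of the checkpoint, rose (0.73 ± 0.18, limma adjusted p = 0.0237, and 0.56 ± 0.12, limma adjusted p = 0.016). *Bub3* (ENSMUSG00000066979, chr7:131560222-131571895), the adaptor that brings both of them to the kinetochore, fell from 106 and 111 TPM to 66.9 and 70.3 TPM, with no overlap between the populations (log2 fold change -0.65, SE 0.12, limma adjusted p = 0.0099). The genes of these 3 proteins, which act together, did not share a direction. *Mad2l1*, which encodes the inhibitor that binds CDC20, had 113 and 82.03 TPM in A_undiff and 86.95 and 78.9 TPM in A_diff (log2 fold change -0.21, SE 0.18, limma adjusted p = 0.387), and *Ttk* did not pass (0.41 ± 0.14, limma adjusted p = 0.0653). With 1 A_undiff library left out, *Bub3* no longer passed (limma adjusted p = 0.0574 and 0.0692), and without the second A_undiff library *Bub1* did not pass either (limma adjusted p = 0.123).

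The chromosomal passenger complex corrects wrong attachments and later acts in cytokinesis, and 3 of its 4 genes rose. *Birc5* (survivin) was at 38.8 and 33.1 TPM in A_undiff and 92.1 and 82.97 TPM in A_diff (log2 fold change 1.26, SE 0.15, limma adjusted p = 0.00248), and *Incenp*, the scaffold, was at 63.8 and 69.6 and 149.7 and 130.4 TPM (log2 fold change 1.06, SE 0.14, limma adjusted p = 0.00312). *Aurkb*, the kinase of the complex, rose less (0.57 ± 0.13, limma adjusted p = 0.0181) and missed the threshold when either A_undiff library was left out (limma adjusted p = 0.124 and 0.0652). *Cdca8* (borealin), one of the highest members in A_undiff at 151 and 128 TPM, was at 157 and 157 TPM in A_diff and did not pass (0.18 ± 0.13, limma adjusted p = 0.328).

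Of the 7 kinetochore and centromere genes, 6 rose. *Cenpf*, a large protein of the outer corona, was at 15.9 and 16.5 TPM and then 52.1 and 45.5 TPM (log2 fold change 1.53, SE 0.16, limma adjusted p = 0.00172). The NDC80 complex, which holds the microtubule, is made of 4 proteins, and 3 of their genes passed. *Spc24* (log2 fold change 1.26, SE 0.15, limma adjusted p = 0.00261) and *Nuf2* (1.17 ± 0.20, limma adjusted p = 0.00649) were called, *Spc25* passed just inside the threshold (0.51 ± 0.16, limma adjusted p = 0.049), and *Ndc80* itself did not pass (0.17 ± 0.21, limma adjusted p = 0.563). *Ndc80* had 66.8 and 55.3 TPM in A_undiff and 83.1 and 56.5 TPM in A_diff, so its A_diff libraries differed by more than the populations did. *Cenpa* (0.74 ± 0.13, limma adjusted p = 0.00798) and the motor *Cenpe* (0.86 ± 0.19, limma adjusted p = 0.0169) also rose.

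Among the 6 spindle motors and microtubule proteins 4 rose. *Kif4*, a chromosome-bound kinesin, was at 10.7 and 11.03 TPM in A_undiff and 36.1 and 28.4 TPM in A_diff (log2 fold change 1.48, SE 0.19, limma adjusted p = 0.00288), and *Tpx2*, the activator of Aurora A on the spindle, was at 32.4 and 32.9 and 99.8 and 76.3 TPM (log2 fold change 1.39, SE 0.17, limma adjusted p = 0.00263). *Kif11*, the motor that separates the spindle poles, and *Kif2c*, a microtubule depolymerase, rose just under 2-fold on the log scale (0.99 ± 0.20, limma adjusted p = 0.0114, and 0.92 ± 0.13, limma adjusted p = 0.00407). *Hmmr*, a spindle pole protein, was at 8.32 and 9.56 TPM and 11.2 and 6.78 TPM and did not pass (-0.02 ± 0.27, limma adjusted p = 0.956). *Nusap1* did not pass either (0.69 ± 0.25, limma adjusted p = 0.0695), and its A_diff libraries were at 31.3 and 19.4 TPM.

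All 5 genes of the central spindle and cytokinesis rose, and this was the role group of more than 2 genes with the highest median, 1.09. *Prc1* (ENSMUSG00000038943, chr7:80294450-80316259), which bundles the microtubules of the central spindle, was at 33.9 and 34.1 TPM in A_undiff and 109.6 and 91.6 TPM in A_diff (log2 fold change 1.53, SE 0.15, limma adjusted p = 0.00151). *Kif23* (log2 fold change 1.36, SE 0.17, limma adjusted p = 0.00261) and *Kif20a* (1.09 ± 0.12, limma adjusted p = 0.00215), kinesins of the same structure, were also called. *Anln*, a scaffold of the contractile ring, rose less (0.77 ± 0.14, limma adjusted p = 0.00873), and *Ect2*, the activator of RhoA, least (0.66 ± 0.18, limma adjusted p = 0.0284).

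Of the 5 genes of anaphase and protein destruction, 2 rose. *Ube2c* (ENSMUSG00000001403, chr2:164769898-164778822), the ubiquitin-conjugating enzyme of the anaphase-promoting complex, was at 59.7 and 63.2 TPM and then 118 and 131 TPM (log2 fold change 1.002, SE 0.13, limma adjusted p = 0.00326), and *Cdc20*, its activator and the target of the checkpoint, was at 83.4 and 95.8 and 157 and 191 TPM (log2 fold change 0.95, SE 0.15, limma adjusted p = 0.0057). *Pttg1* (securin) had 112 and 114 TPM in A_undiff and 124 and 94.1 TPM in A_diff, with overlap (-0.07 ± 0.16, limma adjusted p = 0.777). *Espl1* (separase), the protease that securin holds inactive, and *Fbxo5*, an inhibitor of the complex, did not pass (0.40 ± 0.14, limma adjusted p = 0.061, and 0.98 ± 0.36, limma adjusted p = 0.073).

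Several of the smaller increases did not pass when 1 library was left out. Such a fit rests on fewer libraries, so a lost pass does not by itself show that an increase depended on 1 library. Without either A_undiff library *Aurka*, *Bub1b* and *Cenpe* did not pass (limma adjusted p = 0.0531 to 0.0958), nor did *Cenpa* and *Anln* without the first one (limma adjusted p = 0.0652 and 0.055) or *Kif11* and *Ect2* without the second (limma adjusted p = 0.0539 and 0.148). *Spc25* passed only when the second A_diff library was the one left out, and otherwise had a limma adjusted p of 0.0768 to 0.253, while *Ect2* also did not pass without the first A_diff library (limma adjusted p = 0.0562). *Fbxo5* passed without the first A_undiff library (log2 fold change 1.52, limma adjusted p = 0.0172), and *Nusap1* and *Espl1* passed without the second A_diff library (limma adjusted p = 0.00229 and 0.0356). After median-of-ratios scaling *Bub1*, *Bub1b*, *Aurkb*, *Spc25* and *Ect2* did not pass (limma adjusted p = 0.0503 to 0.168). In a fit over all 12 libraries, which share 1 estimate of the spread, 19 members rose and 0 fell, where 16.1% and 11.7% of all genes did. Of the members that had passed, *Bub3* and *Cdc25c* did not (limma adjusted p = 0.174 and 0.149), nor did 8 of those that rose, *Aurka*, *Aurkb*, *Bub1b*, *Cdc20*, *Cenpe*, *Kif20a*, *Kif2c* and *Spc25* (limma adjusted p = 0.0747 to 0.321). Of the 15 called members 14 passed under every alternative, and *Kif20a* did not in the fit over all 12 libraries (limma adjusted p = 0.214).

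Of 123 other mitosis genes, all tested, 45 rose and 6 fell, and 15 and 3 were called, where 23.4% and 14.7% of all genes rose and fell and 11.1% and 9.24% were called. Their median log2 fold change was 0.37, between the 0.15 of all genes and the 0.81 of the members. The largest increases among those called were in *Mad2l2* (2.14 ± 0.22, limma adjusted p = 0.0017), *Ckap2l* (1.79 ± 0.18, limma adjusted p = 0.00166) and the condensin gene *Ncapg2* (1.61 ± 0.16, limma adjusted p = 0.00171). The 3 called decreases were in *Mad2l1bp* (-1.07 ± 0.23, limma adjusted p = 0.0153), which encodes an antagonist of MAD2, *Mad1l1* (-1.01 ± 0.22, limma adjusted p = 0.0154), whose product anchors MAD2 at the kinetochore, and the cohesin loader gene *Nipbl* (-1.03 ± 0.23, limma adjusted p = 0.0163). All 3 genes of cyclins A and B rose. Of 38 DNA replication genes 23 rose and 0 fell, with a median of 0.76. Differentiating spermatogonia markers, 7 genes, summed to 546 and 595 TPM in A_undiff and to 2196 and 2284 TPM in A_diff, and the 13 undifferentiated markers to 959 and 1068 TPM and to 209.9 and 224 TPM.

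**Figure D2:**
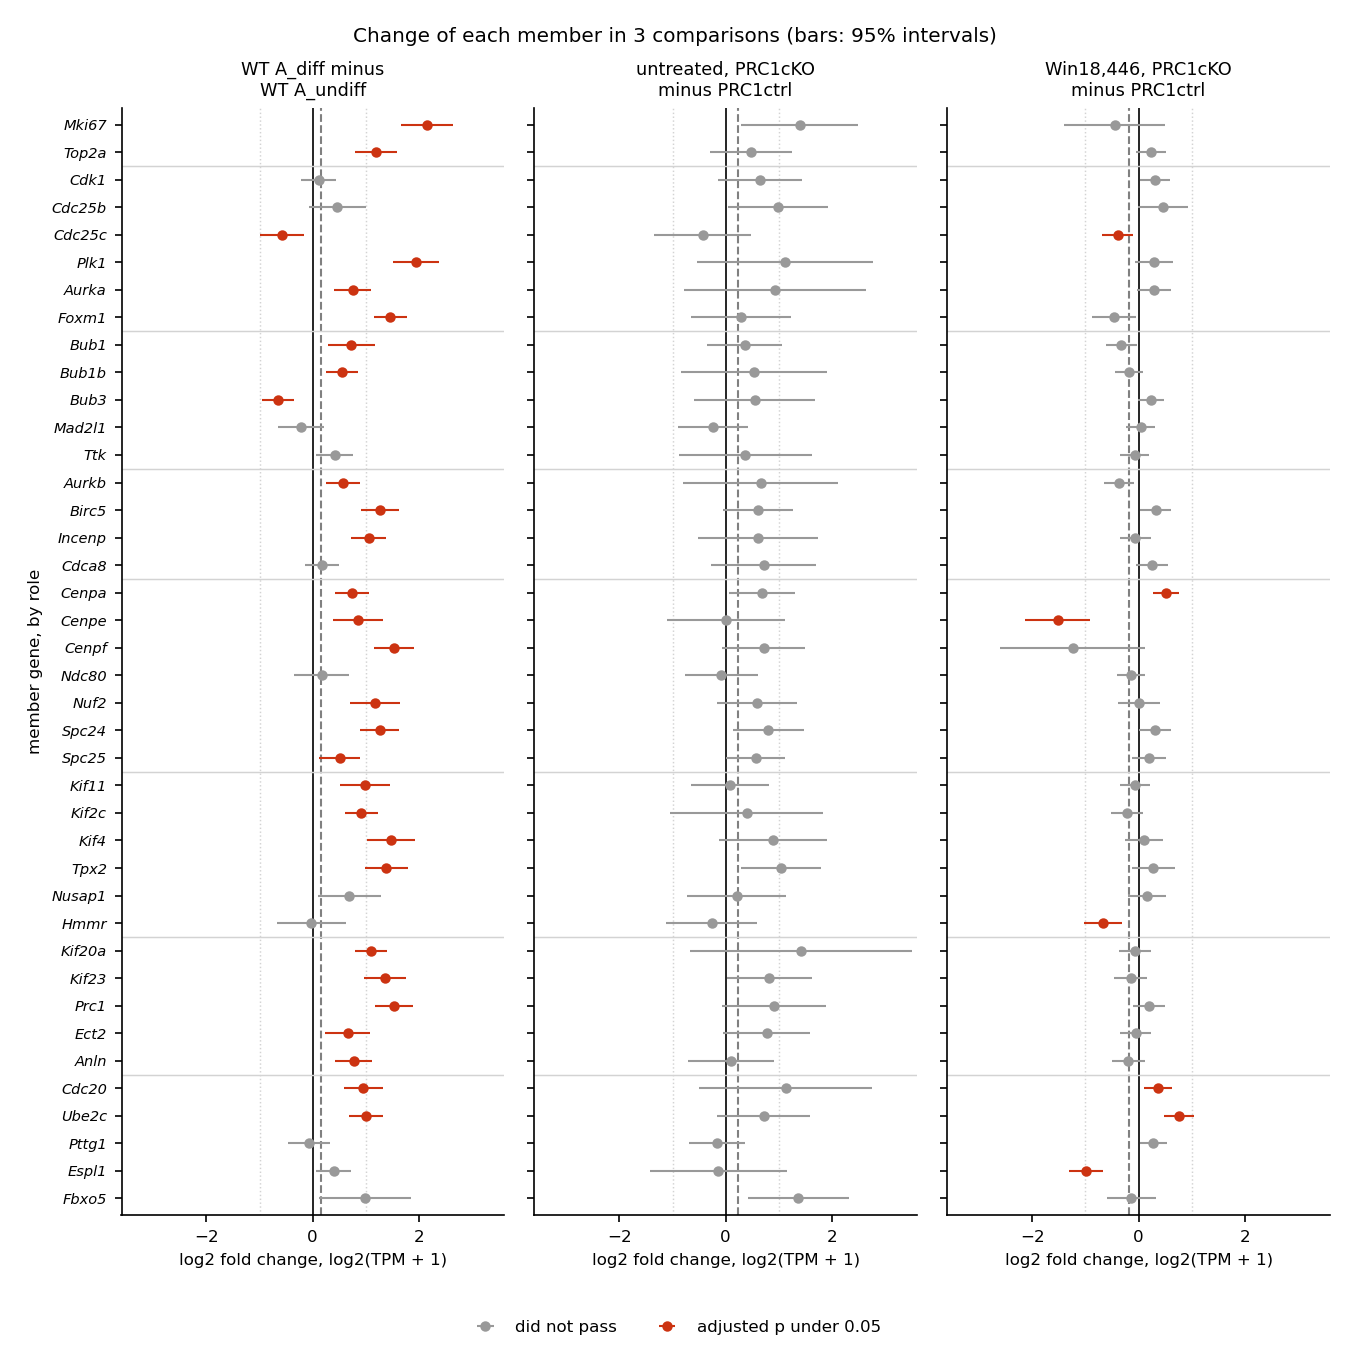
Log2 fold change of each member (point) with its 95% interval (bar), in 3 panels for WT A_diff minus WT A_undiff, untreated PRC1cKO minus PRC1ctrl, and Win18,446-treated PRC1cKO minus PRC1ctrl. Red marks members at an adjusted p under 0.05 (29, 0 and 7 of 40), dashed lines the median of all genes tested (0.15, 0.22 and -0.19) and dotted lines a 2-fold change.

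The promoters of the members were read next, whether or not the member passed in WT. RefSeq windows from 250 bases before to 50 bases after the start on GRCm38.p6 were at hand for 33 of the 40 members. Each was searched on both strands for 3 kinds of motif known from cell cycle promoters: the cell cycle genes homology region (CHR, TTTGAA or TTCGAA), the CCAAT box (CCAAT) and E2F-like sites (TTCGCGC or TTGGCGC or TTCCCGC). None of these motifs contains another, but the letters TTGG belong both to an E2F-like sequence and to the CCAAT box read on the other strand. A CHR was present in 27 of the 33 windows (81.8%), against 19.2% of all 32851 windows in the table. A CCAAT box was present in 25 (75.8%), against 37.4% of all, and an E2F-like site in 4 (12.1%), against 8.07%. All 3 kinds occurred together in 4 windows of members (12.1%) and in 0.423% of all. The 10 members called higher in A_diff that have a window held a CHR in 8, and the other 23 members held one in 19. A match shows only that these letters are present.

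The windows of the 5 members with the largest called rise that have one, and of *Bub3*, which fell in WT, and *Cenpe*, called lower after Win18,446, are shown from 250 bases before to 30 bases after the start, 5′ to 3′, with motif letters of all 3 kinds in capitals. They lie at chr7:135716350-135716629, minus strand (*Mki67*), chr7:122159185-122159464, plus strand (*Plk1*), chr1:189688057-189688336, minus strand (*Cenpf*), chr7:80294201-80294480, plus strand (*Prc1*), chrX:100625815-100626094, plus strand (*Kif4*), chr7:131560120-131560399, plus strand (*Bub3*) and chr3:135212313-135212592, plus strand (*Cenpe*).
Mki67: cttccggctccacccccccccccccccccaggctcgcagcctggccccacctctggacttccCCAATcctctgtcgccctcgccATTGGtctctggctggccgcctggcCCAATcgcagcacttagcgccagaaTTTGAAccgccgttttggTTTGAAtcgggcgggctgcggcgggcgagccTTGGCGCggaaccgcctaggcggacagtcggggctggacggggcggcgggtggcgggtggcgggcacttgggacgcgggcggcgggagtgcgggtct
Plk1: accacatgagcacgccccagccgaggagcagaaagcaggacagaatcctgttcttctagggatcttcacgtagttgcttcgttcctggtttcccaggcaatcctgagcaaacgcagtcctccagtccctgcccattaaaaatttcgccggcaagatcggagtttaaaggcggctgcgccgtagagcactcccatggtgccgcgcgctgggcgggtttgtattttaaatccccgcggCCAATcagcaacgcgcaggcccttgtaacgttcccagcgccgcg
Cenpf: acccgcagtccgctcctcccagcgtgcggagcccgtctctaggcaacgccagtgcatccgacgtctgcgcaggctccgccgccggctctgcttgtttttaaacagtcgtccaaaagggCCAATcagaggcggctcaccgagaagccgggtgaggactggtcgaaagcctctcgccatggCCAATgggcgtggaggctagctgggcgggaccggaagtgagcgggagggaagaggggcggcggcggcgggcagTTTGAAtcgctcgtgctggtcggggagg
Prc1: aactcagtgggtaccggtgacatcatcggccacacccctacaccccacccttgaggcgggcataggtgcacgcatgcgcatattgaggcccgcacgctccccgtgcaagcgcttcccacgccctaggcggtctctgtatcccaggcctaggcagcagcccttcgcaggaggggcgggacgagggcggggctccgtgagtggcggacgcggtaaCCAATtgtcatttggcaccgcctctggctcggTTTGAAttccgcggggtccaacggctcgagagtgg
Kif4: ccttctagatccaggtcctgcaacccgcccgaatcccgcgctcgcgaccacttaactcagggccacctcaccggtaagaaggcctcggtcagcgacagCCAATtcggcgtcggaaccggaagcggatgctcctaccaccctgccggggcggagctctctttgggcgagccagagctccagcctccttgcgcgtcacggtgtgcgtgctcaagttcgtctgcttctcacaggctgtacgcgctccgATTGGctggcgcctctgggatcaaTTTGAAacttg
Bub3: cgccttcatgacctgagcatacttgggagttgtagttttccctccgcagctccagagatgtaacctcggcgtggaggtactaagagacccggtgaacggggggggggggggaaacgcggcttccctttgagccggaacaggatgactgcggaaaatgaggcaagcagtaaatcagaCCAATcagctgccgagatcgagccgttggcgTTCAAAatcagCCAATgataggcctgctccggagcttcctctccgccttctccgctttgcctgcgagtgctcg
Cenpe: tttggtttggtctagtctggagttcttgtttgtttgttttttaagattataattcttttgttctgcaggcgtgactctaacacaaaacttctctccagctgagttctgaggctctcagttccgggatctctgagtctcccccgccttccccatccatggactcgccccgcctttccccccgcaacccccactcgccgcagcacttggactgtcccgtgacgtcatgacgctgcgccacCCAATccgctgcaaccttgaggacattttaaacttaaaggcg

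*Mki67* held 2 CHRs, which begin 116 and 98 bases before the start, with 3 CCAAT boxes upstream of them (1 on the other strand) and an E2F-like TTGGCGC downstream. *Prc1* held a CHR 5 bases before the start with a CCAAT box 37 bases before it. *Plk1* had a CCAAT box 14 bases before the start and a CHR that begins 30 bases after it, just past the stretch shown. *Cenpe* had a CCAAT box 12 bases before the start and no CHR letters in its whole window. *Bub3* carried a CHR on the other strand, 43 bases before the start, between CCAAT boxes at 74 and 32 bases, the same kinds of motif as *Prc1*, although *Bub3* fell and *Prc1* rose.

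The untreated PRC1 comparison asked whether the members differ in A_undiff between the labels PRC1cKO and PRC1ctrl. None of the 40 members passed by limma, while 8 had an unadjusted p under 0.05, all of them higher under the label PRC1cKO. Of all genes 14.2% had such a p, and 5.98% had it and were higher. Of all 13953 genes tested, 0.222% rose and 1.94% fell, and all of these changed more than 2-fold (0.222% and 1.94%). The log2 fold change was above 0 for 34 members and below 0 for 6, with a median of 0.61, 0.38 above the median of all genes. Without the first library labelled PRC1ctrl the members' median was 0.33 and that of all genes 0.085. Without the first labelled PRC1cKO they were 0.83 and 0.35. After median-of-ratios scaling the members' median was 0.30 and that of all genes -0.04. For 19 members (47.5%) both libraries labelled PRC1cKO were above both labelled PRC1ctrl, where 27.5% of all genes were, and for 1 member, *Pttg1*, both were below, where 17.3% of all genes were. The low-input replicates were far apart. Over the members, the median absolute log2 difference between replicates was 0.44 in both groups, against 0.11 to 0.21 in the stranded groups. Same-numbered libraries deviated together (correlation 0.670 over the members), though nothing states that they share a source. With the replicate number as a block 16 members rose, where 1562 of all 13953 genes rose and 1231 fell. In a fit over all 12 libraries, which takes the spread from the stranded libraries as well, 7.05% of all genes rose and 8.41% fell, and 0 members fell and 9 rose: *Mki67*, *Cdc25b*, *Cenpa*, *Spc24*, *Kif4*, *Tpx2*, *Kif23*, *Ect2* and *Fbxo5* (limma adjusted p = 0.013 to 0.0417).

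*Mki67* was at 5.59 and 3.43 TPM in the libraries labelled PRC1ctrl and at 15.5 and 11.3 TPM in those labelled PRC1cKO. The lowest library labelled PRC1cKO was above the highest labelled PRC1ctrl, but the difference did not pass (log2 fold change 1.40, SE 0.44, limma adjusted p = 0.228, 95% interval 0.30 to 2.49). *Fbxo5*, the inhibitor of the anaphase-promoting complex, was at 13.3 and 8.80 TPM and at 29.6 and 29.4 TPM, and had the lowest adjusted p of the members (log2 fold change 1.37, SE 0.38, limma adjusted p = 0.171). *Tpx2* was next, with 32.4 and 40.4 TPM against 71.7 and 79.7 TPM (1.04 ± 0.30, limma adjusted p = 0.185). *Top2a* overlapped between the labels (0.47 ± 0.31, limma adjusted p = 0.562).

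For the genes of mitotic entry the replicates set the width of the intervals. *Plk1* was at 2.03 and 2.21 TPM under the label PRC1ctrl and at 2.66 and 11.5 TPM under PRC1cKO, so that the second library labelled PRC1cKO gave most of the difference (log2 fold change 1.12, SE 0.66, limma adjusted p = 0.527). *Cdk1* was at 70.7 and 109 and at 125 and 153 TPM, with no overlap (0.65 ± 0.32, limma adjusted p = 0.445). *Foxm1* was low in these libraries, at 1.13 and 1.23 and 1.21 and 2.18 TPM (0.28 ± 0.38, limma adjusted p = 0.767). *Cdc25c* had the lowest log2 fold change of all members (-0.43 ± 0.37, limma adjusted p = 0.648).

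In the checkpoint and the passenger complex no member passed. *Bub1* was at 58.5 and 73.8 TPM and 89.6 and 79.8 TPM (0.36 ± 0.28, limma adjusted p = 0.628), and *Bub3* (0.54 ± 0.46, limma adjusted p = 0.645) and *Mad2l1* (-0.24 ± 0.26, limma adjusted p = 0.713) marked the ends of the checkpoint group. *Aurkb* (0.66 ± 0.58, limma adjusted p = 0.655) lay between *Cdca8* (0.71 ± 0.40, limma adjusted p = 0.507) and *Birc5* (0.61 ± 0.27, limma adjusted p = 0.391). *Birc5* was at 81.6 and 81.2 TPM and 141 and 110.1 TPM, which do not overlap.

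The kinetochore genes ran from *Spc24* (0.81 ± 0.27, limma adjusted p = 0.26) to *Ndc80* (-0.08 ± 0.27, limma adjusted p = 0.913), and *Cenpa* was at 199 and 276 TPM and 369 and 389.6 TPM (0.69 ± 0.25, limma adjusted p = 0.298). *Hmmr* had the lowest value of the spindle proteins (-0.26 ± 0.34, limma adjusted p = 0.763). *Kif20a* had the largest log2 fold change of any member, but its libraries were at 7.32 and 29.4 TPM and 22.2 and 76.7 TPM and overlapped (log2 fold change 1.42, SE 0.84, limma adjusted p = 0.524). *Anln* was at 27.2 and 27.4 TPM and 27.2 and 31.6 TPM (0.10 ± 0.33, limma adjusted p = 0.908). The libraries of *Cdc20* were spread widely too, with 23.5 and 77.7 TPM and 66.5 and 137 TPM (1.13 ± 0.65, limma adjusted p = 0.515), and *Pttg1* was at 294 and 291 TPM and 248 and 276 TPM (-0.16 ± 0.21, limma adjusted p = 0.765).

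Of the 119 other mitosis genes tested, 0 passed by limma and 7 had an unadjusted p under 0.05, below the 14.2% of all genes, with a median log2 fold change of 0.45. Of 38 DNA replication genes 0 passed and 10 had an unadjusted p under 0.05, above that share, with a median of 0.73. The differentiating spermatogonia markers summed to 243 and 272 TPM under the label PRC1ctrl and to 590 and 692 TPM under PRC1cKO. The undifferentiated spermatogonia markers, 13 genes, summed to 396 and 491 TPM and to 158 and 203 TPM. *Nanos3* held most of this sum under PRC1ctrl, at 286 and 349 TPM, and was at 92.4 and 80.6 TPM under PRC1cKO. *Lin28a* was at 79.6 and 83.1 TPM and at 34.2 and 53.2 TPM. *Gfra1* (7.18 and 14.97 TPM, then 8.83 and 23.6 TPM) and *Zbtb16* (4.93 and 12.5 TPM, then 5.08 and 14.2 TPM) overlapped between the labels, so the sum does not describe every marker. The spermatid markers given above were lower under PRC1cKO in both libraries. Leydig cell markers summed to 1.36 and 1.32 TPM under PRC1ctrl and to 22.3 and 62.3 TPM under PRC1cKO, and macrophage markers to 2.16 and 7.11 TPM and to 12.6 and 25.2 TPM, and the part of these cell types in the members' values was not tested.

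**Figure D3:**
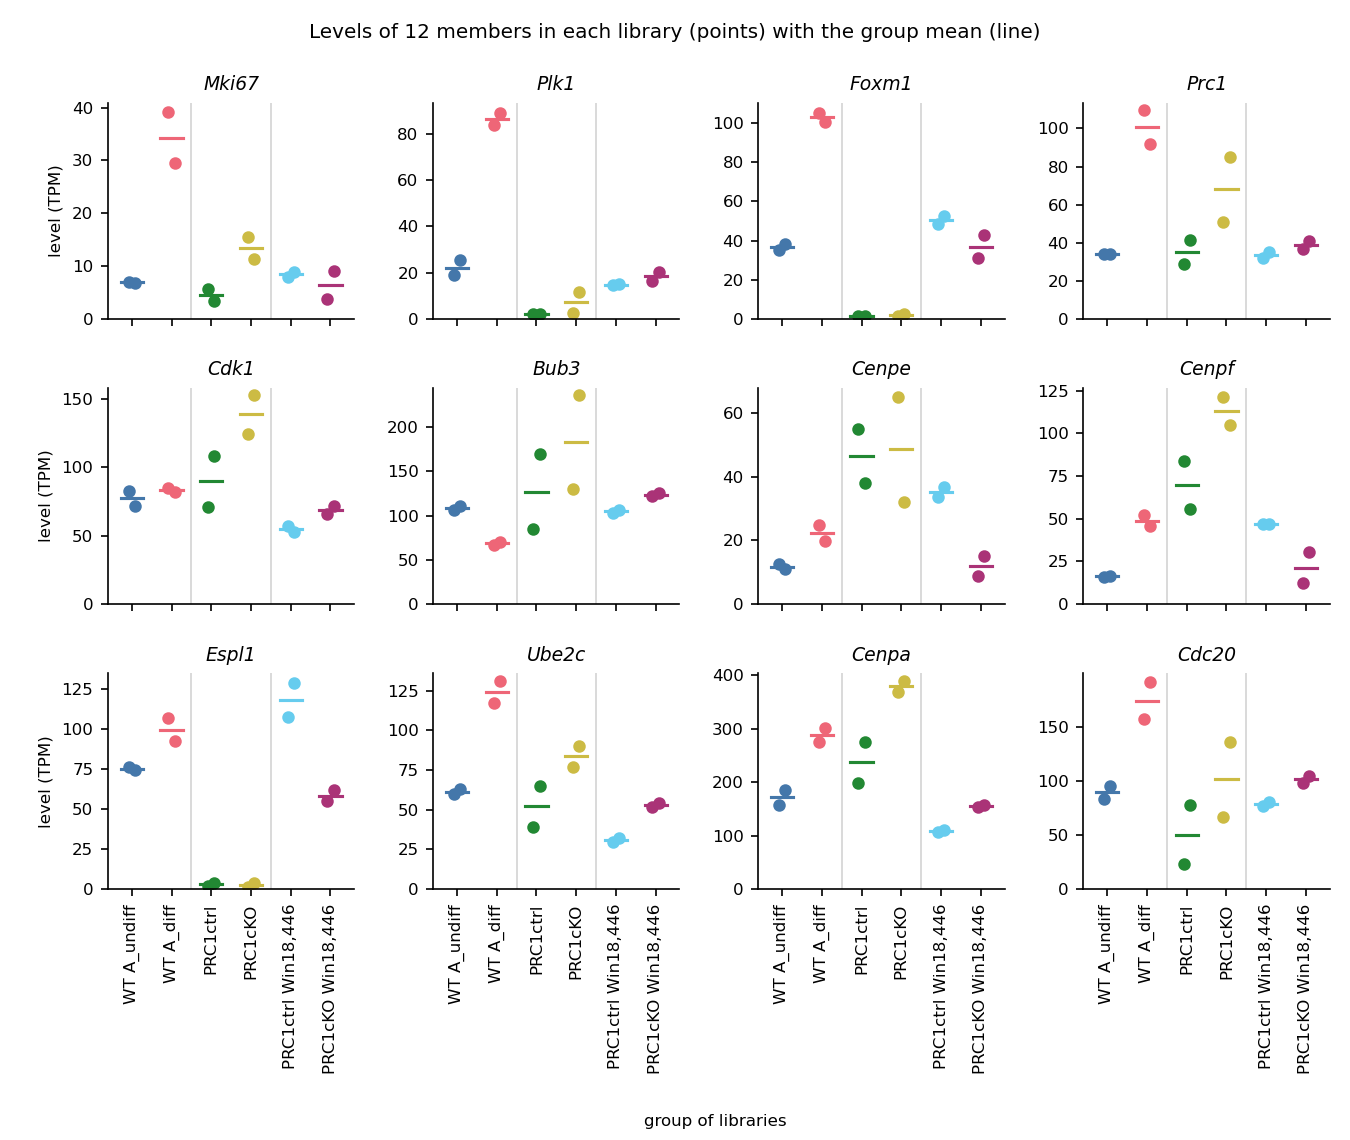
Level in TPM of 12 members in each library (points, 2 per group) with the group mean (line), every axis starting at 0; grey lines separate the WT, untreated PRC1 and Win18,446 groups. *Mki67*, *Plk1*, *Foxm1* and *Prc1* are highest in WT A_diff, *Bub3* is lowest there, and *Cenpe*, *Cenpf* and *Espl1* are lower in the treated libraries labelled PRC1cKO than in those labelled PRC1ctrl.

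After Win18,446, which blocks the retinoic acid synthesis that spermatogonial differentiation needs, 7 of the 40 members passed. *Ube2c*, *Cenpa* and *Cdc20* rose under the label PRC1cKO, and *Cenpe*, *Espl1*, *Hmmr* and *Cdc25c* fell. These are 3 of 40 members, a share near the 5.87% of all 16521 genes tested that rose, and 4 of 40, below the 26.7% of all genes that fell. By the stricter call, 0 members were higher and 1, *Cenpe*, was lower, where 1.27% and 10.9% of all genes were, and 14 members had an unadjusted p under 0.05, where 44.3% of all genes had, a larger share than among the members. The log2 fold change was above 0 for 20 members and below 0 for 20, with a median of -0.02, and the median of all genes was -0.19. After median-of-ratios scaling the members' median was 0.21 and that of all genes 0.03, so the members' median lay above that of all genes under either scaling. With this scaling 14 members rose and 3 fell, where 15.5% of all genes rose and 17.7% fell, so the number of increases depends on the scaling. In the fit over all 12 libraries, where 1.67% of all genes rose and 12.5% fell, 0 members rose and 2 fell, *Cenpe* and *Cenpf*, with a limma adjusted p of 0.0489 for *Cenpf*. Both libraries labelled PRC1cKO were above both labelled PRC1ctrl for 17 members (42.5%), where 20.1% of all genes were, and below them for 14 (35.0%), where 49.3% of all genes were.

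*Ube2c* was at 29.7 and 32.05 TPM under the label PRC1ctrl and at 51.5 and 53.99 TPM under PRC1cKO, a 1.71-fold difference (log2 fold change 0.75, SE 0.12, limma adjusted p = 0.00524). *Cdc20*, which works with it, was at 76.6 and 80.7 TPM and 98.3 and 105 TPM (log2 fold change 0.36, SE 0.11, limma adjusted p = 0.0438). *Cenpa* was at 106 and 111 TPM and 153 and 157 TPM (log2 fold change 0.51, SE 0.10, limma adjusted p = 0.0119). In these 3 genes the replicates lay close together and the labels did not overlap. The change of *Cdc20* did not pass when any 1 of the 4 libraries was left out (limma adjusted p = 0.0836 to 0.174), and that of *Cenpa* did not pass without either library labelled PRC1cKO (limma adjusted p = 0.0645 and 0.0656).

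*Cenpe* (ENSMUSG00000045328, chr3:135212537-135273611), the kinesin that carries chromosomes to the spindle equator, was at 33.6 and 36.6 TPM under the label PRC1ctrl and at 8.70 and 15.2 TPM under PRC1cKO. Its mean was 2.94-fold lower under PRC1cKO, the largest decrease of any member (log2 fold change -1.52, SE 0.25, limma adjusted p = 0.00744). *Cenpf* was at 47.1 and 46.96 TPM and at 12.2 and 30.3 TPM, and did not pass, with the 2 libraries labelled PRC1cKO far apart (log2 fold change -1.24, SE 0.47, limma adjusted p = 0.137). Without the second library labelled PRC1cKO it passed (log2 fold change -1.86, limma adjusted p = 0.0155). *Ndc80*, *Nuf2*, *Spc24* and *Spc25*, which form the NDC80 complex, did not pass (log2 fold changes -0.14 to 0.31).

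*Espl1* was at 107 and 129 TPM under the label PRC1ctrl and at 55.1 and 61.7 TPM under PRC1cKO (log2 fold change -0.9983, SE 0.13, limma adjusted p = 0.00359), 2.02-fold lower by its mean and at the edge of the 2-fold limit on the log scale. *Pttg1*, the partner of *Espl1*, was at 86.9 and 82.1 TPM and 104 and 101 TPM and did not pass (0.28 ± 0.11, limma adjusted p = 0.0891). *Hmmr* was at 9.05 and 9.98 TPM and 5.63 and 5.54 TPM (log2 fold change -0.67, SE 0.15, limma adjusted p = 0.0171). *Cdc25c* was at 32.9 and 32.5 TPM and 23.9 and 25.5 TPM (log2 fold change -0.39, SE 0.12, limma adjusted p = 0.0481). *Cdc25c* did not pass with any 1 library left out (limma adjusted p = 0.121 to 0.203), nor *Hmmr* without 3 of the 4 (limma adjusted p = 0.0587 to 0.0888), and after median-of-ratios scaling *Cdc25c* was at -0.15 (limma adjusted p = 0.297).

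The proliferation genes did not pass. *Mki67* was at 7.98 and 8.78 TPM under the label PRC1ctrl and at 3.69 and 9.06 TPM under PRC1cKO, so that the treated PRC1cKO libraries spanned those of the controls (log2 fold change -0.45, SE 0.37, limma adjusted p = 0.407). Without the second library labelled PRC1cKO its log2 fold change was -0.999 (limma adjusted p = 0.0369). *Top2a* (0.24 ± 0.12, limma adjusted p = 0.166), *Cdk1* (0.31 ± 0.12, limma adjusted p = 0.0828), *Plk1* (0.29 ± 0.15, limma adjusted p = 0.19) and *Cdc25b* (0.46 ± 0.20, limma adjusted p = 0.118) were above 0. *Foxm1* was below 0, with 48.4 and 52.5 TPM under PRC1ctrl and 30.9 and 42.8 TPM under PRC1cKO (-0.46 ± 0.17, limma adjusted p = 0.0819). After median-of-ratios scaling *Top2a*, *Cdk1*, *Plk1* and *Cdc25b* passed, with log2 fold changes of 0.48 to 0.68. *Cdc25b* also passed without the second library labelled PRC1ctrl (limma adjusted p = 0.0473), and *Foxm1* without the second labelled PRC1cKO (log2 fold change -0.69, limma adjusted p = 0.041).

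In the other roles, *Aurkb* was just outside the threshold, with 77.8 and 85.8 TPM and 60.1 and 65.9 TPM (-0.37 ± 0.12, limma adjusted p = 0.0527), while *Birc5* of the same complex was above 0 (0.32 ± 0.12, limma adjusted p = 0.0828). *Bub1* (-0.32 ± 0.12, limma adjusted p = 0.0915) and *Bub3* (0.24 ± 0.10, limma adjusted p = 0.124) were the ends of the checkpoint group, and neither passed. *Tpx2* (0.28 ± 0.17, limma adjusted p = 0.241) was the highest of the spindle proteins, and passed without the first library labelled PRC1ctrl (limma adjusted p = 0.0477). The cytokinesis genes lay between *Anln* (-0.19 ± 0.13, limma adjusted p = 0.294) and *Prc1* (0.20 ± 0.13, limma adjusted p = 0.255).

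Of the 123 other mitosis genes 6 rose and 36 fell, and 0 and 6 were called, with a median log2 fold change of -0.22. These counts are to be read against the 5.87% and 26.7% and the median of -0.19 of all genes given above. The largest decreases were in *Kif15* (-1.81 ± 0.18, limma adjusted p = 0.00206), a spindle motor, *Cit* (-1.37 ± 0.26, limma adjusted p = 0.0113), a kinase of cytokinesis, and *Numa1* (-1.23 ± 0.26, limma adjusted p = 0.0226), a spindle pole protein. Of the 14 genes of cohesin and its regulators 7 fell and 0 rose, of the 8 condensin genes 4 fell and 0 rose, and of the 3 genes of cyclins A and B 2 rose. Of 38 DNA replication genes 6 rose and 3 fell. Leydig cell markers, 6 genes of the hormone-producing cells between the tubules, summed to 427 and 85.2 TPM under the label PRC1ctrl and to 83.3 and 23.4 TPM under PRC1cKO, and Sertoli cell markers to 188 and 117 TPM and to 200.1 and 126 TPM. The undifferentiated spermatogonia markers summed to 878 and 961 TPM and to 669 and 747 TPM, the differentiating ones to 637 and 702 TPM and to 807 and 890 TPM, and the spermatid markers to 141 and 129 TPM and to 25.9 and 24.0 TPM. The part of these cells in the members' values was not tested.

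The treated libraries labelled PRC1ctrl were also set against WT A_undiff, sorted by the same gate and made with the same kit. Genotype, strain and treatment all differ between these groups and cannot be told apart, and the libraries are those of the comparisons above. Of the 40 members 5 rose and 6 fell in the treated PRC1ctrl libraries, where 33.9% of all 16602 genes tested rose and 8.60% fell. By the stricter call 2 members were higher and 0 lower, where 16.4% and 3.17% of all genes were. The median log2 fold change of the members was 0.02 and that of all genes 0.30. After median-of-ratios scaling the members' median was -0.32 and that of all genes -0.01, so the members' median lay below that of all genes under either scaling. With this scaling 2 members rose and 16 fell, where 19.6% of all genes rose and 20.2% fell. Spermatid markers summed to 803 and 882 TPM in WT A_undiff and to 141 and 129 TPM in the treated PRC1ctrl libraries, Leydig cell markers to 22.5 and 45.0 TPM and to 427 and 85.2 TPM, Sertoli cell markers to 53.2 and 57.9 TPM and to 188 and 117 TPM, and macrophage markers to 10.1 and 14.1 TPM and to 40.3 and 24.7 TPM. The part of these cells in the members' values was not tested.

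*Cenpe* and *Cenpf* were the 2 called members. *Cenpe* was at 12.4 and 11.1 TPM in WT A_undiff and 33.6 and 36.6 TPM in the treated PRC1ctrl libraries (log2 fold change 1.501, SE 0.14, limma adjusted p = 0.00213), and *Cenpf* was at 15.9 and 16.5 TPM and 47.1 and 46.96 TPM (log2 fold change 1.48, SE 0.13, limma adjusted p = 0.00186). The treated libraries labelled PRC1cKO, at 8.70 and 15.2 TPM for *Cenpe* and 12.2 and 30.3 TPM for *Cenpf*, are shown beside these as levels only, with no test. *Espl1* (0.63 ± 0.13, limma adjusted p = 0.0116), *Foxm1* (0.45 ± 0.12, limma adjusted p = 0.0305) and *Aurkb* (0.41 ± 0.12, limma adjusted p = 0.0358) also rose. After median-of-ratios scaling these last 3 did not pass (limma adjusted p = 0.106 to 0.632).

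*Ube2c* had the largest decrease, from 59.7 and 63.2 TPM in WT A_undiff to 29.7 and 32.05 TPM (log2 fold change -0.97, SE 0.12, limma adjusted p = 0.00351). *Cenpa* (-0.65 ± 0.12, limma adjusted p = 0.00887), *Nusap1* (-0.59 ± 0.16, limma adjusted p = 0.0286), *Cdk1* (-0.48 ± 0.12, limma adjusted p = 0.0258), *Top2a* (-0.42 ± 0.11, limma adjusted p = 0.0287) and *Pttg1* (-0.42 ± 0.10, limma adjusted p = 0.0223) fell as well. *Mki67* (0.25 ± 0.17, limma adjusted p = 0.275), *Plk1* (-0.53 ± 0.18, limma adjusted p = 0.0573), *Bub1* (0.43 ± 0.16, limma adjusted p = 0.0789) and *Cdc20* (-0.18 ± 0.12, limma adjusted p = 0.261) did not pass. Nor did the remaining ends of the role groups, *Ttk* (-0.12 ± 0.13, limma adjusted p = 0.468), *Birc5* (-0.29 ± 0.14, limma adjusted p = 0.146), *Kif11* (0.29 ± 0.15, limma adjusted p = 0.167), *Kif23* (0.24 ± 0.13, limma adjusted p = 0.172) and *Prc1* (-0.02 ± 0.12, limma adjusted p = 0.91). When 1 of the 4 libraries was left out, *Foxm1*, *Aurkb*, *Top2a*, *Nusap1* and *Pttg1* did not pass in any of the 4 cases (limma adjusted p = 0.0511 to 0.198), and *Cdk1* did not pass in 2 of them (limma adjusted p = 0.104 in both). *Plk1* and *Bub1* passed without the first WT library (limma adjusted p = 0.0314 and 0.0356). Of the 123 other mitosis genes 36 rose and 8 fell, the increases a share below the 33.9% of all genes and the decreases below the 8.60%, with the largest called increases in *Pds5a* (1.43 ± 0.13, limma adjusted p = 0.00192), a cohesin regulator, *Pkmyt1* (1.38 ± 0.26, limma adjusted p = 0.00992), the kinase that holds CDK1 inactive, and *Ncapg2* (1.28 ± 0.14, limma adjusted p = 0.00256). Of 38 DNA replication genes 3 rose and 12 fell.

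Whether the difference between the labels changed with treatment was tested as an interaction over the 8 PRC1 libraries, in which treatment and kit cannot be told apart. None of the 40 members passed by limma, and 6 had an unadjusted p under 0.05, below the 24.7% of all genes that had, while 2.77% of all 18354 genes tested passed with a positive and 5.03% with a negative interaction. The members' median was -0.60 and that of all genes -0.41. After median-of-ratios scaling the members' median was 0.044 and that of all genes 0.14. The sign of both medians thus turned with the scaling, and the members' median lay below that of all genes under either. The lowest adjusted p were those of *Fbxo5* (interaction on the log2 scale -1.504 ± 0.40, limma adjusted p = 0.0697), *Kif23* (-0.97 ± 0.28, limma adjusted p = 0.0891), *Cenpf* (-1.95 ± 0.59, limma adjusted p = 0.0982) and *Mki67* (-1.84 ± 0.58, limma adjusted p = 0.109), all negative, that is, higher under PRC1cKO in the untreated than in the treated comparison. *Pttg1* had the highest value (0.44 ± 0.21, limma adjusted p = 0.249). *Plk1* (-0.83 ± 0.75, limma adjusted p = 0.53) passed only without the first untreated library labelled PRC1cKO (interaction -1.71, limma adjusted p = 0.0455). For *Cdk1*, *Top2a*, *Bub1*, *Aurkb*, *Cdc20* and *Foxm1* the interaction was between -1.03 and -0.23 (limma adjusted p = 0.204 to 0.716). Over all genes 924 passed with a negative interaction. Far fewer did when 1 of the 4 treated libraries or the second untreated library labelled PRC1cKO was left out. After median-of-ratios scaling 0 members passed, and 5.28% of all genes passed with a positive and 1.54% with a negative interaction. The balance of signs among the genes that passed thus turned with the scaling. Of the 123 other mitosis genes 8 passed, all negative, a share near the 5.03% of all genes, and the lowest values were those of *Kif15* (-2.66 ± 0.34, limma adjusted p = 0.0125), *Spag5* (-2.46 ± 0.41, limma adjusted p = 0.0204) and *Kif14* (-1.93 ± 0.42, limma adjusted p = 0.0415).

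The level of many members differed between the kits. In the 4 low-input libraries 9 members were below all 8 stranded libraries and 9 were above all of them, and 22 overlapped. Of all 19210 genes at 1 TPM or more in at least 2 libraries, 34.3% were below and 10.8% above. *Espl1* was at 1.56 to 3.92 TPM in the low-input libraries and at 55.1 to 129 TPM in the stranded ones, and *Foxm1* at 1.13 to 2.18 TPM against 30.9 to 105 TPM. The opposite held for *Spc25*, at 392 to 699 TPM against 40.3 to 69.02 TPM, and for *Mad2l1*, at 251 to 381 TPM against 78.9 to 115 TPM. Over the 40 members the difference between the kits on the log2 scale fell with the GC content of the longest transcript (Spearman's rho = -0.70, across genes of the same libraries, which are not independent) and had a rho of 0.05 with its length. Over 9083 genes at 1 TPM or more in every library rho was -0.47 for GC content and -0.22 for length. The 10 members lowest in the low-input libraries relative to the others had a median GC content of 53.4% and the 10 highest one of 42.4%. Genotype, strain and treatment also differ between these sets of libraries, and cannot be told apart from the kit.

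**Figure D4:**
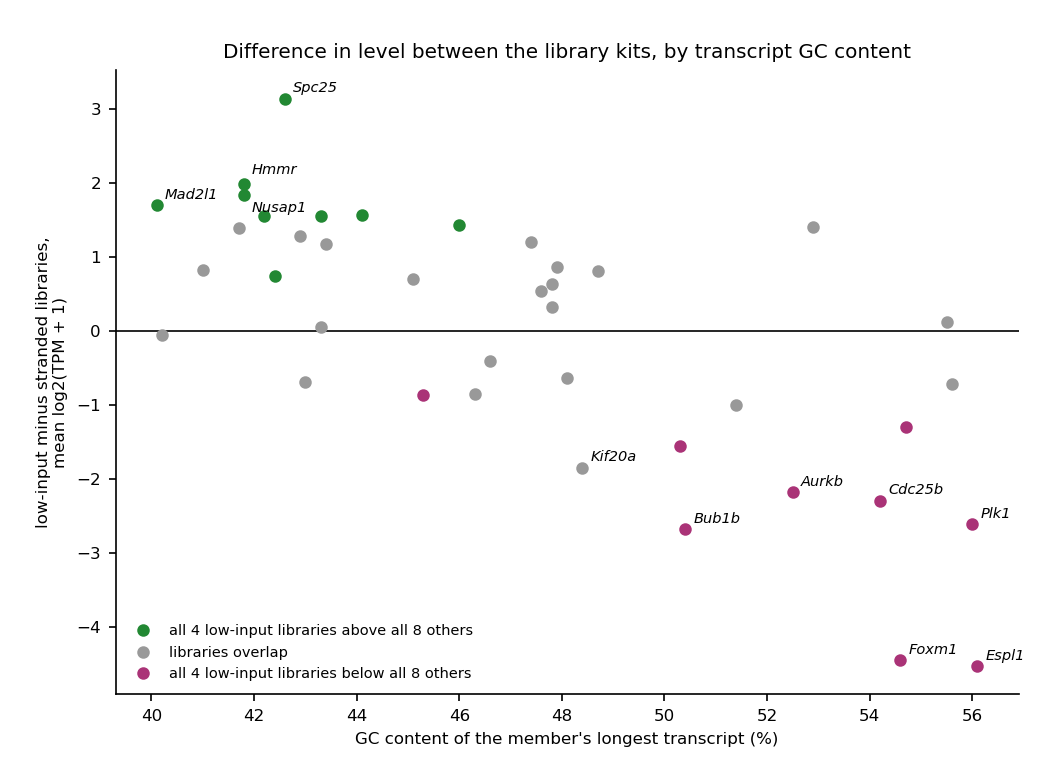
For each of the 40 members (points), the mean log2(TPM + 1) of the 4 low-input libraries minus that of the 8 stranded libraries, against the GC content of its longest transcript in percent. *Espl1* and *Foxm1*, of high GC content, lie below 0 and *Spc25* and *Mad2l1*, of low GC content, above it (Spearman's rho = -0.70), with exceptions such as *Spc24* (52.9%, at 1.42) and *Ttk* (43.0%, at -0.69).

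There are 6 members that overlap an opposite-strand gene over more than 5% of their exons, and the low-input kit does not mark the strand. The shares are 29.3% for *Kif20a* (with *Cdc23*), 22.8% for *Ube2c* (with *Tnnc2*), 15.1% for *Kif4* (with *Pdzd11*), 12.7% for *Cdc25c* (with *Gm3550*), 11.1% for *Prc1* (with *Rccd1*) and 7.09% for *Plk1* (with *Gm44985*), and reads over them are uncertain. Apart from such overlaps, stretches of at least 200 bases with at least 95% identity to another gene were found in 2 members, *Mad2l1* (with *Gm42430*, at most 0.24 TPM) and *Mki67* (with *Gm44521*, listed at 0 TPM).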

How the data were processed

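Undifferentiated and differentiating spermatogonia were sorted from mouse testes and their RNA sequenced as 12 libraries, 2 for each of 6 groups taken from the sample labels. The authors deposited 1 table of TPM values for 55385 genes, which they computed with RSEM 1.3.3 on GRCm38/mm10 after trimming with Trim Galore 0.6.6 (versions from the submitters' processing notes). The study's own test used read counts, which were not used here, so the design for counts was replaced by a test on log values. Whether strand was used in counting is not given in the sources used here. TPM is a share, so a few abundant genes move all others. It keeps no read numbers, so depth, intervals for counting error and detection floors cannot be given. The column totals were equal in every library, and 0 columns of other samples were present.

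Values were analysed as log2(TPM + 1) with limma 3.58.1 in R 4.3.3 (a robust mean-variance trend, tests two-sided), on genes with 1 TPM or more in 2 or more of the libraries compared and on those libraries only, with Benjamini-Hochberg adjustment over all genes tested and the study's limits, an adjusted p under 0.05 and a log2 fold change beyond 1. Scripts were tested on simulated data. The members, their roles and all gene lists were chosen with earlier results of these data known. The genes given full statistics were the members called in a comparison, the largest and smallest changes of each role, *Mki67*, *Top2a*, *Cdk1*, *Plk1*, *Aurkb*, *Bub1*, *Cdc20* and *Foxm1*, and at most 3 called genes per direction among the other mitosis genes; further members were described after their values were seen. All 40 members matched the annotation (GENCODE vM21) by identifier and coordinates. Promoter windows came from RefSeq on GRCm38.p6, and for the 3 members with 2 windows the one nearest the table's start was used. Similar transcripts were found with blastn 2.17.0, and tables and figures were made with Python 3.11.15, pandas 2.3.3, numpy 2.4.6 and matplotlib 3.10.9. The alternatives were a pseudocount of 0.1, no filter, a filter at a mean of 5 TPM, median-of-ratios scaling, rescaling without mitochondrial genes, the replicate number as a block, 1 model for all 12 libraries, limma's plain moderation, and each library left out in turn.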

Additional observations from a re-analysis of the deposited data

How the results depend on the processing

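With 2 libraries in a group and TPM without read numbers, precision rests on the replicates, and p-values measure only the spread between these pooled samples. No member's change that passed reversed its sign under any alternative run. Without a filter 1 member fell in WT, where 1571 of all 28455 genes did. In the treated PRC1ctrl libraries against WT A_undiff 3 rose and 2 fell, where 3450 and 707 of all 32069 genes did. Without trend or robust moderation these counts were 1, 3 and 3 for the members, and 2105, 5155 and 1147 for all genes. With a pseudocount of 0.1, 2 members were called lower after Win18,446. Under median-of-ratios scaling the members' median log2 fold change was 0.65 in WT, 0.30 in the untreated comparison, 0.21 after Win18,446, -0.32 between the treated PRC1ctrl and WT A_undiff libraries and 0.044 for the interaction, where that of all genes was 0.14. Under the same scaling 14 members rose after Win18,446, and against WT A_undiff 2 rose, 16 fell and 1 was called lower. In the fit over all 12 libraries 19 members rose and 0 fell in WT. In the untreated comparison 9 rose and 3 were called higher, and after Win18,446 0 rose and 2 fell, with 2 called lower. Against WT A_undiff 2 rose and 2 fell, where 3675 and 627 of all 16602 genes did. The shares of all genes that rose or fell in the first 3 comparisons are given with their results above. Other causes were not tested.

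Nothing states that libraries with the same replicate number share a source. Deviations from the group means of same-numbered libraries correlated over all genes at 0.158 in WT, 0.381 in the untreated, 0.122 in the Win18,446 and 0.0746 in the treated PRC1ctrl against WT comparison. Over the 40 members these values were 0.294, 0.670, 0.324 and 0.031. With the replicate number as a block 16 members rose and 5 were called higher in the untreated comparison, and 5 rose and 7 fell after Win18,446. In that fit after Win18,446, 1280 of all 16521 genes rose and 5238 fell. The share of all genes called in the block fits is not given. Over all genes the block took the untreated calls from 31 higher and 270 lower to 1562 and 1231, and the fit over all 12 libraries gave 983 and 1173. Median-of-ratios scaling gave 84 and 830, and no filter 0 and 0.

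When 1 library was left out, the members that passed as higher in WT numbered 19 to 29 and those that fell 0 to 2, and the untreated median ranged from 0.33 to 0.83 with 0 members that passed. After Win18,446, 1 to 3 members rose, 2 to 5 fell and 1 to 3 were called lower. Against WT A_undiff 3 to 4 rose, 2 to 3 fell and 0 to 1 were called lower, with a median of -0.069 to 0.071. The interaction median ranged from -0.82 to -0.39, and 0 to 1 members passed as negative. The untreated median was lowest without the first library labelled PRC1ctrl (0.33) and highest without the first labelled PRC1cKO (0.83). Over all genes, 924 passed with a negative interaction in the main fit. Far fewer did when 1 treated library or the second untreated library labelled PRC1cKO was left out.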
